A study of Homo sapiens with 3 samples.

Results

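CAMTA1, CSMD1, CNTNAP2, NTM and SHANK2 are 5 long human genes best known from the nervous system, and each carried many YBX1 peaks in HEL cells. They were taken from earlier results of the same data because of those peaks, so their peak numbers are given as a description with no test. A peak belonged to a gene where the authors' list of gene names for that peak included it. By this rule 169 of 22874 peaks of replicate 1 and 121 of 17285 peaks of replicate 2 named 1 of the 5 genes.

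The libraries came from HEL, an established human erythroleukaemia cell line that carries the V617F mutation of the kinase JAK2, grown without drug. Chromatin crosslinked with formaldehyde was immunoprecipitated with an antibody against YBX1 in replicates 1 and 2, and 1 input library of sheared chromatin served as the control for both. Whether the replicates are separate cultures is not given in the labels, so their spread may be technical. Replicate 1 held 10275569 tags (aligned reads), replicate 2 held 10190347 and the input 77308330. No expression was measured here, so nothing in these values shows whether the 5 genes were transcribed in HEL cells.

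YBX1, also called YB-1, uses its cold-shock domain to bind RNA and DNA, single strands among them, and takes part in transcription, splicing and translation. CAMTA1 is a calmodulin-binding transcription activator of neurons. CSMD1 is a large membrane protein built of CUB and sushi domains, which are also found in complement regulators. CNTNAP2 (Caspr2) is a neurexin-family adhesion protein that helps to cluster potassium channels along myelinated axons. NTM (neurotrimin) is a cell adhesion protein of the IgLON family, anchored to the membrane by a lipid. SHANK2 is a scaffold protein of the postsynaptic density. Introns of such genes hold many short tandem repeats, in which a unit of a few bases is copied head to tail, and old transposable elements such as HAL1, a LINE.

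The tandem repeats under the peaks were built of a handful of units, and the copies shown here spell out how they read. Each unit was grouped over all its rotations and both strands, so that labels such as TCCA and TGGA count as the unit ATCC, and TAGA and TCTA as the unit AGAT. A pair of copies of each unit, followed by a reading from the opposite strand, is given in capitals because these are also the strings searched for in promoters.
ATCC, this strand: ATCCATCC
ATCC, opposite strand: GGATGGAT
AGAT, this strand: AGATAGAT
AGAT, opposite strand: ATCTATCT
The letters of the peaks themselves were not read, since no genome of the peaks' build (hg19) was used here; every unit named is the authors' label for the peak.

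All 5 genes had their peaks in introns. Of the 169 peaks of replicate 1, 164 were annotated as intronic, against 36.9% of all peaks in that list, and of the 121 of replicate 2, 119 were intronic, against 36.4%. Long genes consist mostly of intron, so this share is set in part by the choice of the genes. No peak that named the genes lay in a promoter or an exon in either list. At these numbers 0 allows a promoter share of up to 2.22% in replicate 1 and 3.08% in replicate 2 (upper 95% Wilson bounds), while 3.28% and 3.42% of all peaks were annotated as promoter and 0.901% and 0.874% as exon. These bounds treat neighbouring peaks as independent, and the choice of the genes bears on this share too. No lack of promoter peaks is therefore read from them. The few other peaks were intergenic and named the gene as a neighbour. They were 3 peaks for CSMD1 and 2 for NTM in replicate 1, and 1 each for CSMD1 and CAMTA1 in replicate 2.

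Peaks lay in clumps, so peaks of either list that were within 1000 bp of each other were joined into sites. The 5 genes held 87 sites, and 51 of these (58.6%, 95% Wilson interval 48.1 to 68.4) had a peak in both lists, against 57.6% of the 13800 sites of the whole genome. The genes thus stood close to the genome as a whole in how often a site was found again. Sites found in both lists held 135 of the 169 peaks of replicate 1 and 113 of the 121 peaks of replicate 2. The 36 sites of a single list were weak: their median was 5.5 tags, and 30 of them had fewer than 10. The highest of them, with 43 tags, lay in CSMD1.

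**Figure D1:**
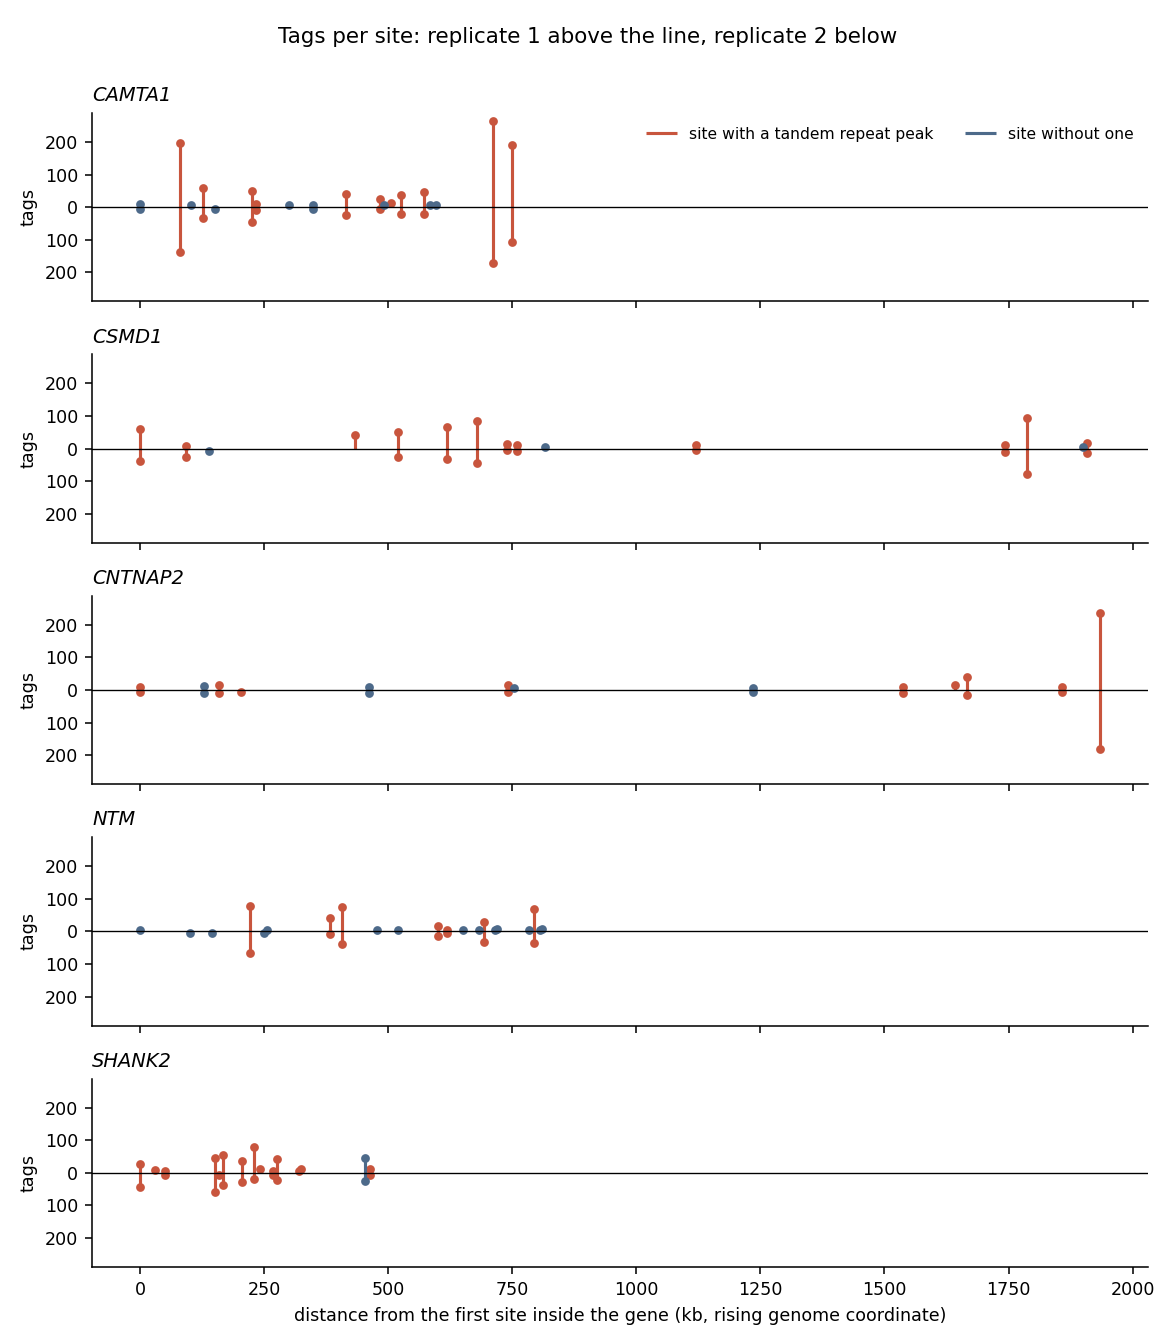
Tags per site along each gene: the x axis is the distance in kb from the first site inside the gene, in the direction of rising genome coordinates, and the y axis is the number of tags, with replicate 1 drawn upward and replicate 2 downward; colour marks sites with or without a peak labelled as tandem repeat. CAMTA1 has 3 tall sites with up to 266 and 172 tags, CNTNAP2 has 1 with 237 and 181, and the sites of NTM and SHANK2 stay below 80 tags in both lists.

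CAMTA1, on chromosome 1, had the most peaks of the 5 genes, 49 in replicate 1 and 36 in replicate 2, at 20 sites of which 12 were in both lists. Among these, 3 sites stood well above the rest. The first, at chr1:6996961-6997950 (hg19), held 196 tags in replicate 1 and 138 in replicate 2, and 8 of its 9 peaks were labelled with the hexanucleotide CACCAT (unit ACCATC). Another, at chr1:7628104-7629933 in intron 6 of 22, held 266 and 172 tags in 10 and 11 separate peaks, labelled mostly HAL1-2a_MD or CACCAT. The remaining one, at chr1:7666972-7667767 in the same intron, was a single broad peak in each list with 190 and 108 tags and a fold enrichment of 148 and 106. Fold enrichment is the authors' ratio of the tags at the peak's summit to the local background expected from the input. The label of that broad peak differed between the lists, with no repeat named in replicate 1 and TGGA (unit ATCC) in replicate 2. Ranked by the lower of the folds in the 2 lists, it was 1 of the first 3 regions of the gene, with chr1:7142501-7142590 on TAGA, with 23 and 32 tags and folds of 122 and 111, and chr1:7331626-7331730, with 23 and 20 tags and folds of 115 and 106. CAMTA1 was the gene with the most varied units. Its commonest one by peaks, ACCATC, made up 6 of 49 peaks in replicate 1 and 10 of 36 in replicate 2, against 1.6% and 2.01% of all peaks. By sites it was no commoner than AGAT or ATCC, with 3 of the 20 sites for each of these units.

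CSMD1, on chromosome 8, had 35 and 23 peaks at 17 sites, of which 12 were in both lists. All 12 of these held a tandem repeat peak. The unit AGAT led, with 11 of 35 and 11 of 23 peaks, against 23.5% and 28.5% of all peaks, and it occurred at 9 of the 17 sites. The strongest region of the gene, in intron 1 of 69, was chr8:4619178-4619665 on TCTA. It had folds of 193 and 204, the highest of any peak of the 5 genes in each list, and its site held 94 tags in replicate 1 and 78 in replicate 2. By the lower of the 2 folds, next came chr8:3352050-3352201 on TAGA in intron 10, with 27 and 21 tags and folds of 114 and 126, and chr8:4738892-4738986 on TCTA, with 17 and 14 tags and folds of 108 and 136. The trinucleotide unit ACC labelled 5 of 35 and 3 of 23 peaks, against 2.58% and 2.89% of all peaks. It marked a site in intron 7 with 86 and 43 tags and a site in intron 56 with 61 and 39 tags. The lists disagreed most at chr8:3264661-3265093, where replicate 1 had 3 peaks on TGGA with 43 tags in all and replicate 2 had no peak. The opposite held at chr8:2922743-2923160 on TAGA, with 9 tags in replicate 1 and 26 in replicate 2. A stretch of 623 kb from chr8:3951562 to chr8:4575042 had no peak of either list naming the gene.

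CNTNAP2, on chromosome 7, had the largest part of its tags at a single site. Its 20 and 19 peaks fell on 13 sites, 10 of them in both lists. One site, at chr7:148027168-148028836, held 237 of the gene's 381 tags in replicate 1 (62.2%) and 181 of 260 in replicate 2 (69.6%). All 15 peaks there carried the label TGGA, and the 3 regions of the gene that ranked first by the lower of their 2 folds, which reached 121 in replicate 1 and 95.2 in replicate 2, lay within this site. Regions elsewhere in the gene reached 108 in replicate 1, at chr7:146834971-146835056, and 95.2 in replicate 2, at chr7:146222571-146222673. Outside it, no site exceeded 39 tags in replicate 1 or 16 in replicate 2, and the usual unit was AGAT. Of all peaks of the gene, those of the dominant site included, AGAT labelled 8 of 20 and 7 of 19, against 23.5% and 28.5% of all peaks of the lists. No peak naming the gene lay in a stretch of 482 kb between chr7:146846787 and chr7:147328494. In the authors' annotation 12 of the 20 and 12 of the 19 peaks also named the microRNA genes MIR548T and MIR548F3, which the RefSeq table used here (GRCh38.p14) places on chromosomes other than 7.

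NTM, on chromosome 11, had 29 and 18 peaks at 22 sites, and 7 of these sites (31.8%, 95% Wilson interval 16.4 to 52.7) were in both lists. It was the gene with the most sites of a single list, 12 in replicate 1 only and 3 in replicate 2 only, and none of these had more than 11 tags. All 7 sites in both lists held a tandem repeat peak, against 1 of the other 15. The largest, in intron 1 of 7, was chr11:131537851-131538400 with 79 tags in replicate 1 and 66 in replicate 2. Within it, the region chr11:131538084-131538197 had 43 and 25 tags and folds of 94.8 and 73.1, and was labelled TCTA in replicate 1 only. Next came 2 sites on TCCA, chr11:131722644-131722988 with 76 and 37 tags and chr11:132109773-132110196 with 69 and 34 tags. At chr11:132008413-132008526, on TCTA, the replicates were nearly level, with 21 and 22 tags and folds of 42.6 and 43.1. The site chr11:131698178-131698557, labelled CCA and HAL1-2a_MD, had 43 tags in replicate 1 and 7 in replicate 2, a ratio of 0.163, the lowest among the 51 sites in both lists.

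SHANK2, also on chromosome 11, had 36 and 25 peaks at 15 sites, 10 of them in both lists. It was the most uniform of the genes in its repeats: the unit ATCC labelled 23 of 36 peaks (63.9%) in replicate 1 and 19 of 25 (76%) in replicate 2, against 20.0% and 21.6% of all peaks, and stood at 13 of the 15 sites. AGAT, the commonest unit in both whole lists, labelled none of its peaks. No site was dominant, and the largest held 20.4% of the gene's tags in replicate 1 and 23.1% in replicate 2. The largest in replicate 1, chr11:70610149-70611063, had 9 peaks with 79 tags there and 3 peaks with 20 tags in replicate 2. The largest in replicate 2, chr11:70532151-70532642, held 59 tags in that list and 46 in replicate 1. Ranked by the lower of the 2 folds, the first region was chr11:70547973-70548107 on CACCAT, with 18 and 14 tags and folds of 94.4 and 95.2. It was followed by a pair of regions in intron 11 of 22 on TCCA, chr11:70587298-70587400 with 15 and 10 tags and folds of 94.4 and 81.6, and chr11:70587407-70587485 with 16 and 11 tags and folds of 108 and 81.6. A HAL1-2a_MD region in intron 2, chr11:70835151-70835366, was level with this pair at folds of 107 and 81.6 and had more tags, 31 and 25. In a single list other regions were higher, such as chr11:70532151-70532406 with a fold of 109 in replicate 2.

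Over all 5 genes, tags of the same site went together between the lists. Among the 51 sites with peaks in both, replicate 1 had more tags at 41, replicate 2 at 6, and 4 were equal. The median ratio of replicate 2 to replicate 1 was 0.667, ranging from 0.163 to 2.89, and over all sites of the genome it was 0.7. On the log2 scale Pearson's r was 0.898 and Spearman's rho 0.845 over these 51 sites, given as a description since all sites share the same 2 libraries and the same input. In tags summed over peaks, each gene was lower in replicate 2, with ratios of 0.615 for CAMTA1, 0.595 for CSMD1, 0.682 for CNTNAP2, 0.55 for NTM and 0.659 for SHANK2. These sums move with how much was called: over the 5 genes, peaks covered 17315 bp with 2633 tags in replicate 1 and 11340 bp with 1627 tags in replicate 2, which is 152 and 143 tags per kb covered.

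**Figure D2:**
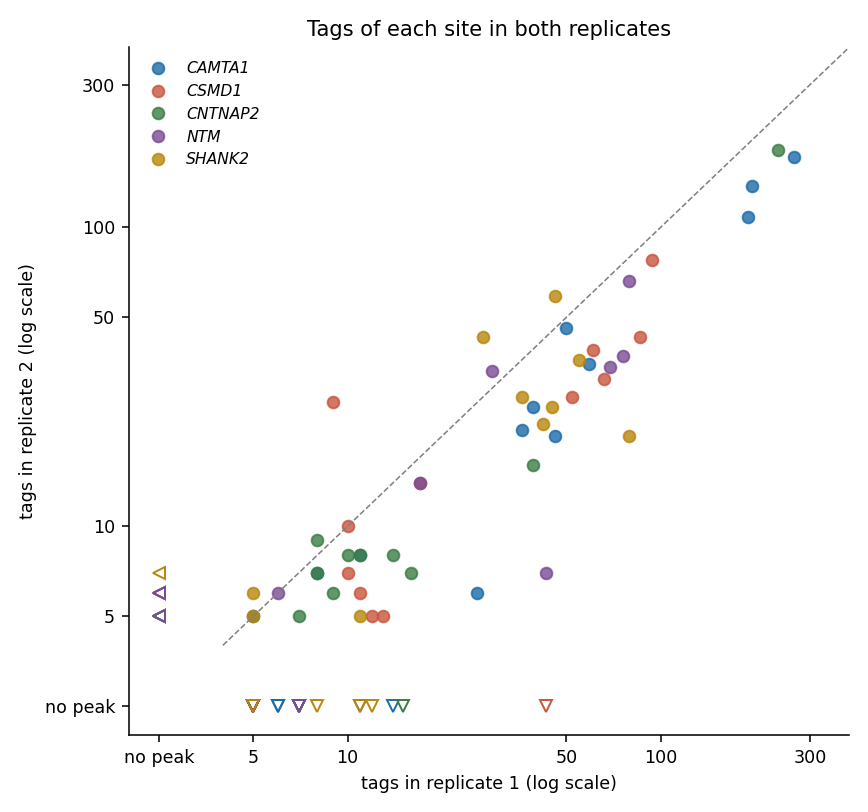
Tags of each site in replicate 1 (x axis) and replicate 2 (y axis), both on log scales, with 1 filled point for each of the 51 sites found in both lists, open triangles for the 36 sites of a single list, and a dashed line of equal tags. Of the 51 sites, 41 lie below the line, and 30 of the 36 others have fewer than 10 tags.

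By peaks rather than sites, 94 of 169 peaks of replicate 1 (55.6%, 95% Wilson interval 48.1 to 62.9) overlapped a peak of replicate 2 by at least 1 bp, against 54% of all peaks of that list. In the other direction 105 of 121 (86.8%, 79.6 to 91.7) did, against 77.6%. The genes ran in the order CNTNAP2 (75%), CAMTA1 (59.2%), CSMD1 (57.1%), SHANK2 (47.2%) and NTM (44.8%) in replicate 1, and CNTNAP2 (94.7%), CAMTA1 (91.7%), CSMD1 (91.3%), NTM (77.8%) and SHANK2 (76%) in replicate 2. None of the 20 pairwise tests between genes, 10 in each list, passed Fisher's exact test, two-sided, with Benjamini-Hochberg adjustment. The smallest adjusted p was 0.537 and 1 unadjusted p was under 0.05. Neither was any of the 10 tests on sites called (smallest adjusted p 0.124, 3 unadjusted under 0.05), so the low share of NTM was not told apart from the others at these numbers.

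Tandem repeats were about as common under the peaks of the 5 genes as in the lists as a whole. They labelled 85 of 169 peaks in replicate 1 (50.3%, 42.8 to 57.7), against 51.2% of all peaks, and 81 of 121 in replicate 2 (66.9%, 58.2 to 74.7), against 58.9%. Counted by peaks, the share varied between the genes. In replicate 1, 30.6% of the CAMTA1 peaks were on a tandem repeat, against 75% for CNTNAP2 and 66.7% for SHANK2, and both differences passed Fisher's exact test (two-sided, adjusted p = 0.0185 each, of 20 tests with 8 unadjusted p under 0.05). In replicate 2 the same genes stood at 58.3%, 84.2% and 80%, and neither difference was called (exact test, adjusted p 0.16 and 0.199). At CAMTA1 regions such as chr1:7331626-7331730 and chr1:7666972-7667767, only the replicate 2 peak carried a tandem repeat label. NTM, with 34.5% and 44.4%, was low in both lists without passing. Peaks of one site are not independent, so the same test was run on sites, a choice made after seeing the data. There NTM, with 8 of 22 sites (36.4%), differed from SHANK2 with 14 of 15 (93.3%, exact test, adjusted p = 0.00608). It also differed from CSMD1 with 14 of 17 (82.4%, exact test, adjusted p = 0.0415), and the CAMTA1 pairs did not pass. Of the sites in both lists, 7 of 7 in NTM, 12 of 12 in CSMD1 and 9 of 10 in SHANK2 held a tandem repeat peak. The differences of NTM called on sites thus rested on the weaker sites of a single list.

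Sites were also described by whether any of their peaks, in either list, was labelled a tandem repeat. Of the 51 sites in both lists, 45 held a tandem repeat peak (88.2%, 95% Wilson interval 76.6 to 94.5), against 11 of the 36 sites of a single list (30.6%, 18 to 46.9). In all, 56 of the 87 sites did (64.4%), against 63.7% of all sites. Over the genome the shares in both lists and in a single list were 86.6% and 32.4%, close to those of the 5 genes. Sites in both lists held more peaks, 135 and 113 over 51 sites, against 34 and 8 over 36, and so had more chances to hold such a label; the part of this in the shares was not tested. The repeat label itself was not fully stable: of 122 overlapping pairs of peaks, 19 (15.6%) had a different class of label in the other list, and in 15 (12.3%) only 1 of the peaks was called a tandem repeat.

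**Figure D3:**
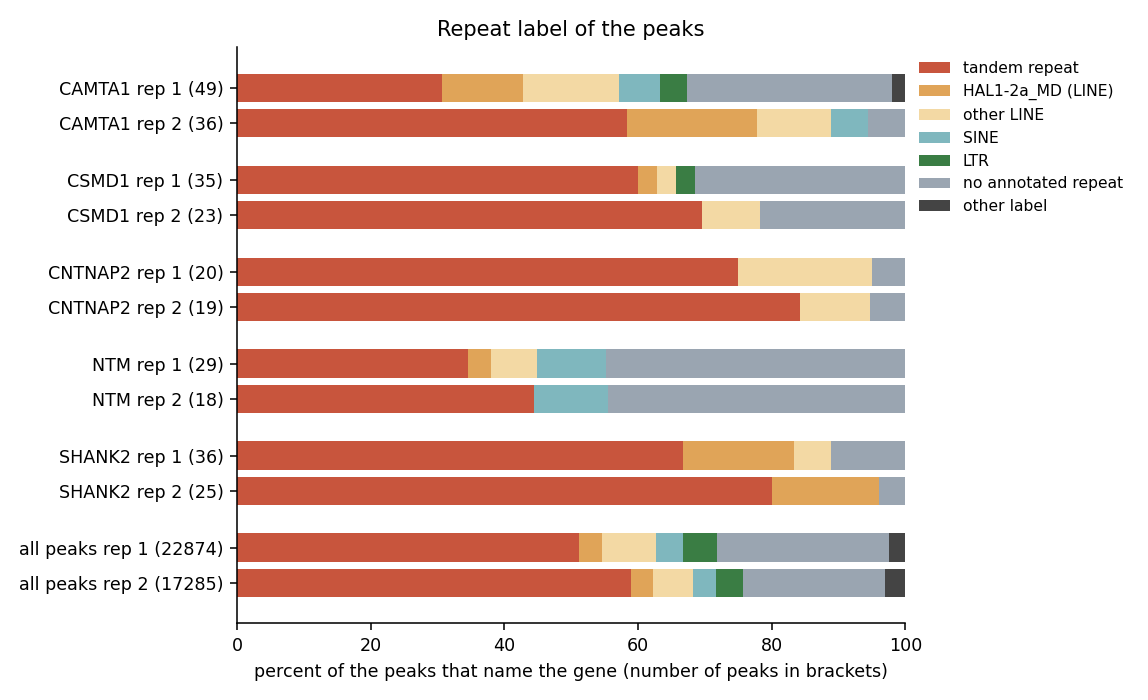
Percent of the peaks of each gene and list by the authors' repeat label, with all peaks of each list at the bottom and the number of peaks in brackets. SHANK2 and CNTNAP2 have the largest tandem repeat shares (66.7% and 75% in replicate 1, 80% and 84.2% in replicate 2), and CAMTA1 and SHANK2 have the widest HAL1-2a_MD parts.

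HAL1-2a_MD, an old LINE element, was the other label that recurred. It was given to 14 of the 169 peaks in replicate 1 (8.28%), against 3.38% of all peaks, and to 11 of the 121 in replicate 2 (9.09%), against 3.33%. These peaks were concentrated in few places. CAMTA1 had 6 and 7 of them, all at the site chr1:7628104-7629933, and SHANK2 had 6 and 4, at chr11:70547973-70548652 and chr11:70834796-70835366. CSMD1 and NTM had 1 each in replicate 1 and none in replicate 2, and CNTNAP2 had none. At 2 of the 3 CAMTA1 and SHANK2 sites, peaks labelled CACCAT lay beside the HAL1-2a_MD peaks. At the third, chr11:70834796-70835366 in intron 2 of SHANK2, the other peaks carried no repeat label and the site held 45 and 25 tags.

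Fold enrichment split the genes into 2 kinds by their local background in the input. Where the input around a peak was no denser than the genome-wide background, each tag at the summit counted for a fold of 13.5 in replicate 1 and 13.6 in replicate 2, and folds were whole multiples of these values (within 0.006 of a multiple). This held for 38.9% and 37.4% of all peaks. It held for 18 of 20 and 18 of 19 CNTNAP2 peaks, 24 of 36 and 15 of 25 SHANK2 peaks, and 21 of 35 and 14 of 23 CSMD1 peaks. For CAMTA1 it held for 0 of 49 and 0 of 36 peaks, and for NTM 0 of 29 and 0 of 18. Their local background was higher at every peak, so the same tags gave a lower fold. Peaks of 5 tags, the smallest in the lists, had a median fold of 31.1 and 32.8 in CAMTA1 and 18.4 and 21.5 in NTM, against 40.5 and 40.8 over all such peaks. In SHANK2 they had a median of 47.2 and 54.1.

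The difference reached beyond the genes. Within 1 Mb on either side, 0 of 54 and 0 of 53 peaks around CAMTA1, and 0 of 34 and 0 of 40 around NTM, were at the genome-wide background. Around SHANK2, on the same chromosome as NTM, 25 of 75 and 23 of 63 peaks were, and around CSMD1 6 of 16 and 6 of 13. Around CNTNAP2 there were too few peaks to compare, with 2 of 2 at that background in replicate 1 and 0 peaks in replicate 2. The reads of the input at these places were not analysed here. The median fold over all peaks of a gene was 22.6 and 28.5 in NTM, 42 and 42.2 in CAMTA1, 53.9 and 54.4 in SHANK2, 67.4 and 57.4 in CSMD1 and 67.4 and 68 in CNTNAP2, beside 53.9 and 54.4 over all peaks. Median tags per peak lay between 7 and 10 in every gene and list, beside 9 and 8 over all peaks, and so did not follow this order.

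**Figure D4:**
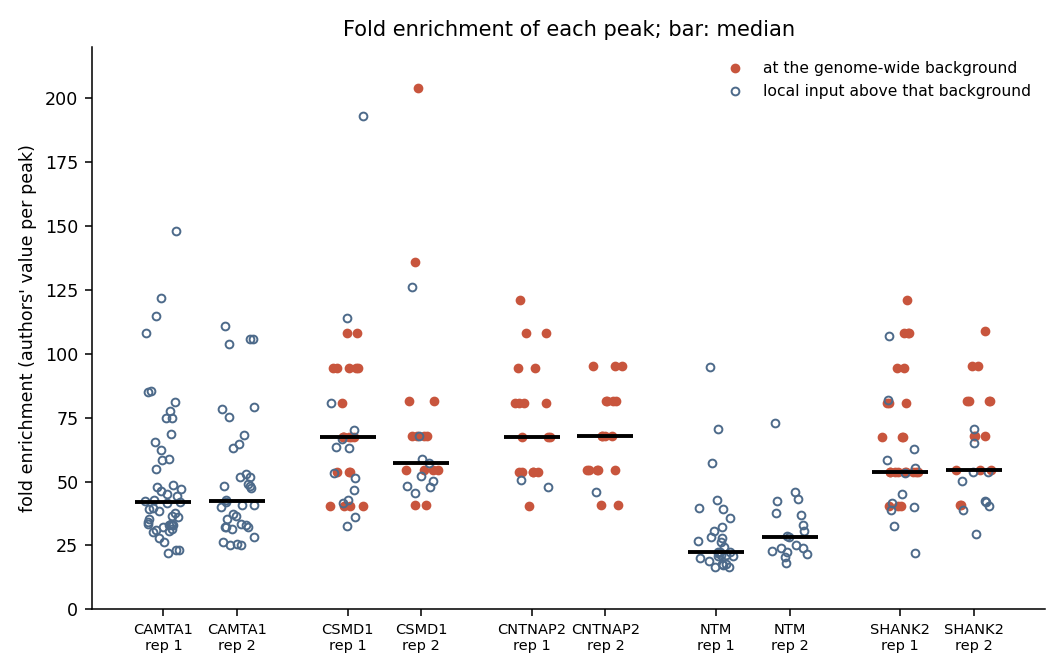
Fold enrichment (y axis, the authors' value for each peak) of every peak by gene and replicate, with a bar at the median; filled points are peaks at the genome-wide background and open points those with a denser local input. All points of CAMTA1 and NTM are open, and the medians run from 22.6 (NTM, replicate 1) to 68 (CNTNAP2, replicate 2).

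The genes also differed in how closely their sites were spaced. From the first to the last site inside the gene, the sites spanned 463 kb in SHANK2, 751 kb in CAMTA1, 811 kb in NTM, 1908 kb in CSMD1 and 1936 kb in CNTNAP2. Sites found in both lists numbered 21.6 per Mb of that span in SHANK2, 16 in CAMTA1, 8.63 in NTM, 5.77 in CSMD1 and 5.17 in CNTNAP2. These densities divide similar numbers of sites, 7 to 12 a gene, by the span, and so mostly restate the span. Where the authors' labels gave an intron, the sites lay in introns 3, 5 and 6 of 22 in CAMTA1, intron 1 of 23 in CNTNAP2, introns 2, 11 and 14 of 22 in SHANK2, and introns 1, 6, 7, 8, 10 and 56 of 69 in CSMD1. In NTM they lay in intron 1 of 7 of one transcript and introns 1, 2 and 3 of 5 of another. Repeat labels replaced the intron label at the other peaks, so these are not all introns with a peak.

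A shared region is a merged stretch of overlapping peaks of the lists. Inside the gene, CAMTA1 had 22 such regions, SHANK2 16, CSMD1 14, and CNTNAP2 and NTM 12 each. Of the 3757 genes with a peak inside them, 15 (0.399%) had at least 12, which describes how the 5 were chosen and supports nothing else. The genes nearest to the median of the 5, which was 14, were MPPED1, PRKAR1B and ZFPM1 with 13 each, C22orf34 with 16 and P2RY8 with 12. The last 2 were taken from a tie by symbol, in which PTPRD with 16 stood as near. Likeness here is the number of regions alone. ZFPM1 is FOG1, a partner of GATA1 in red cell and platelet precursors.

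Relatives of the 5 genes had at most 11 shared regions inside the gene, and the list of 14 was chosen with earlier results of these data known. Of these 14 genes, 8 had a peak inside, 6 had a shared region inside and 0 reached 12. Among all 3757 genes with a peak inside them, 2207 had a shared region inside and 15 reached 12. OPCML, the IgLON gene next to NTM on chromosome 11, came closest with 11 shared regions from 15 and 24 peaks inside. Counting every region that named it, intergenic ones included, OPCML had 17, above the 12 of NTM and of CNTNAP2, the 15 of CSMD1 and the 16 of SHANK2 counted the same way, and below the 22 of CAMTA1. Like NTM, it had no peak inside the gene at the genome-wide background in either list (0%). The same held for CSMD2, CSMD3 and NEGR1. NEGR1, another IgLON gene, had 4 shared regions, LSAMP had 1 peak in replicate 2 alone and IGLON5 had no peak inside. Of the CSMD genes, CSMD3 had 8 shared regions from 22 and 11 peaks, and CSMD2 had 3 from 8 and 4. Of the CNTNAP genes, CNTNAP5 had 6 from 12 and 8 peaks and CNTNAP4 had 1, while CNTNAP3 had a peak in replicate 1 only and CNTNAP1 and CNTNAP3B had none. CAMTA2, SHANK1 and SHANK3 had no peak inside in either list. The lengths of these genes were not measured here, so their numbers cannot be set against length.

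**Figure D5:**
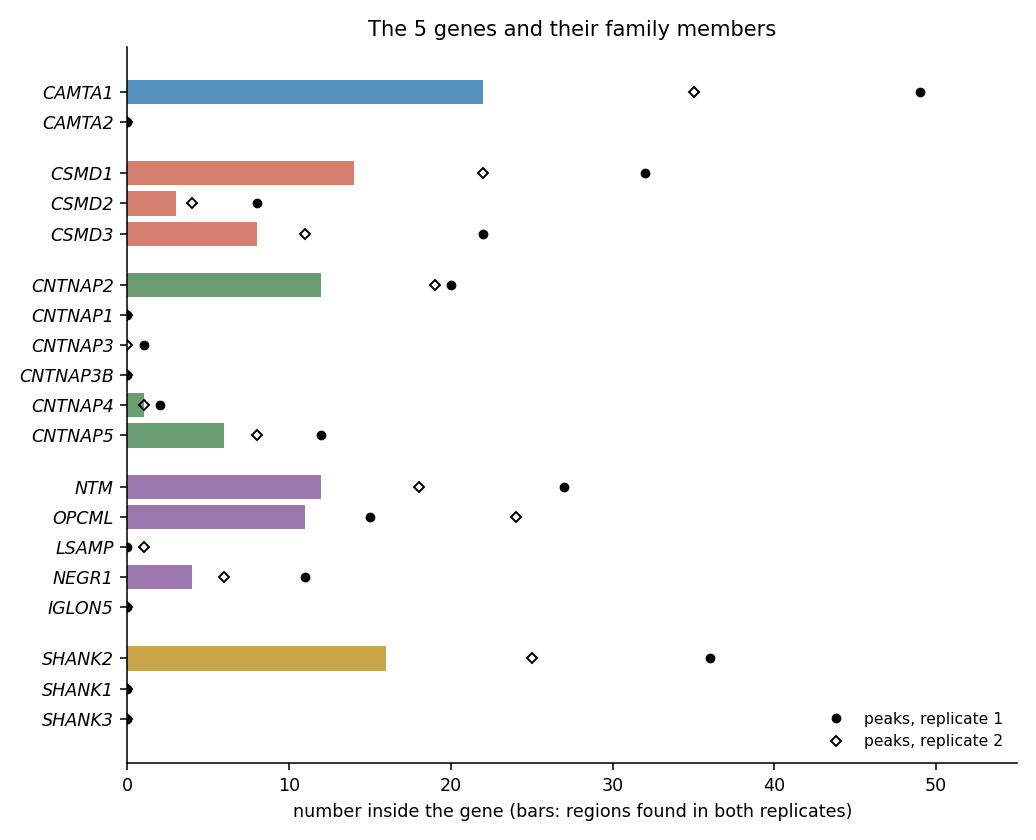
Number of shared regions inside each gene (bars) and of peaks inside it in replicate 1 (filled circles) and replicate 2 (open diamonds), for the 5 genes and 14 relatives grouped by family. Bars reach 12 to 22 in the 5 genes and at most 11 (OPCML) among the relatives.

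Of 40 other long genes, most of them for neuronal or adhesion proteins, 39 had a peak inside and 38 a shared region inside, with a median of 3 and a maximum of 11. Among all 3757 genes with a peak inside them, 2207 had a shared region inside, with a median of 1 and a maximum of 47. Gene length was not taken into account in these numbers. CDH12, a cadherin, had 11, the adhesion molecule DSCAM, DPP10 and MACROD2 had 8 each, and the splicing regulator RBFOX1 had 7. The share of peaks inside the gene at the genome-wide background was 0% in DSCAM in both lists and 87.5% and 88.9% in MACROD2, and it reached 100% in both lists in others of the 40, such as IL1RAPL1 and MAGI2, which had 2 to 4 peaks.

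A few peaks inside SHANK2 and NTM named another gene alone. In intron 8 of SHANK2, peaks annotated as the promoter of the microRNA gene MIR3664 numbered 2 in replicate 1, with 48 tags, and 5 in replicate 2, with 38. The largest, chr11:70719999-70720262, had 37 tags and a fold of 93.4 in replicate 1. Among the 5 of replicate 2, 3 were labelled TCTA, a form of the AGAT unit that no peak naming SHANK2 itself carried. The mature products of MIR3664 are shown because it is the only promoter label inside the 5 genes, with the seed (bases 2 to 8) in capitals (RefSeq, GRCh38.p14).
hsa-miR-3664-5p: aACUCUGUcuucacucaugagu
hsa-miR-3664-3p: uCUCAGGAguaaagacagaguu
The seeds differ, and the lists hold no value for the microRNA itself. In NTM, 1 peak of 5 tags in replicate 1, at chr11:131404644-131404692, lay in an exon of LOC101929653, with no peak naming it in replicate 2.

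Since no peak that named the 5 genes lay in a promoter, promoter sequences were searched for the same repeat units. Of 35116 RefSeq promoters (GRCh38.p14, 250 bases before to 50 after a start), 762 (2.17%) held a pair of copies of ATCC in any rotation on either strand and 315 (0.897%) held a pair of copies of AGAT. The strings were ATCCATCC, TCCATCCA, CCATCCAT, CATCCATC, GGATGGAT, GATGGATG, ATGGATGG and TGGATGGA for ATCC, and AGATAGAT, GATAGATA, ATAGATAG, TAGATAGA, ATCTATCT, TCTATCTA, CTATCTAT and TATCTATC for AGAT. CAMTA1, CNTNAP2 and NTM matched 11 promoters, of which 1, a CAMTA1 promoter, held the ATCC pair and none the AGAT pair. CSMD1 and SHANK2 were not matched. The 250 bases before that CAMTA1 start, chr1:6785204-6785453 (GRCh38.p14, plus strand), are shown with the match in capitals, since this unit lies under intronic peaks of the same gene while no peak was annotated to its promoter.
CAMTA1 promoter: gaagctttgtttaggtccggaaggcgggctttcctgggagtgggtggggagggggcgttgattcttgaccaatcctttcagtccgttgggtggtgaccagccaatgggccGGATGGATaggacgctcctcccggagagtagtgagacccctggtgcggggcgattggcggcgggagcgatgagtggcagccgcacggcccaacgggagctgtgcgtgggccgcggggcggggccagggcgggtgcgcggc
The match is a description of the letters only, and coordinates of this build cannot be set against those of the peaks.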

How the data were processed

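YBX1 ChIP-seq was measured in 2 immunoprecipitated libraries and 1 input of HEL cells. Per the submitters' processing notes, the tools were MACS 1.4, Bowtie2, Trimmomatic 0.36 and bcl2fastq 02.14.01.07, and the build was hg19. Per the file headers, the authors called peaks with MACS 1.4.2 in each replicate separately against the same input, at a p-value cutoff of 1e-05. The headers give MACS's fragment length d as 20 bp with tags of 36 bp, and 10010819 and 9926271 tags kept. This d is shorter than the tags, and the folds of 13.5 and 13.6 per tag at the genome-wide background depend on it. The deposited lists give for each peak a count of tags, a score (a negative log of the p-value on MACS's own scale), the fold enrichment (a ratio to the local background), the false discovery rate in percent, and the summit and length in bp, with the authors' gene names and repeat label. Median peaks had 9 and 8 tags, which limits the precision of each peak, and Wilson intervals (95%) and tests cover counting error only.

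From these, peaks were counted per gene, overlapped (1 bp), joined into sites (1000 bp, chosen after seeing the data) and compared between genes by Fisher's exact test, two-sided, with Benjamini-Hochberg adjustment (Python 3.11.15, pandas 2.3.3, scipy 1.17.1). The test code was checked on simulated data. The 5 genes and all lists were chosen with earlier results of these data known. Named were the 5 genes, the 3 shared regions of each with the highest lower fold of the lists, all 14 relatives, the 5 of 40 other long genes with the most shared regions inside, and the 5 genes nearest to the median number. Inside a gene means annotated as its promoter, exon or intron. The input has no peak list of its own, so no background peaks could be counted in it. The header of the replicate 2 list names its alignment by another number than the label, and the label was followed. Alternatives were a stricter p-value (1e-10), at least 10 tags, inside-gene peaks only, an overlap of 50% of the shorter peak, and each list alone.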

Additional observations from a re-analysis of the deposited data

How the results depend on the processing

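Over the 5 genes together, and averaging the lists for shares and medians, there were 77 shared regions, a shared share of 71.2%, a tandem repeat share of 58.6%, a median of 8.5 tags, a median fold of 53.4, and 2 called differences between genes in tandem repeat share. With peaks of a p-value of at most 1e-10 only, these became 45 regions, a tandem repeat share of 71.1%, 15.5 tags, a fold of 67.7 and 0 called differences. With at least 10 tags they became 40 regions, 17 tags, a fold of 72.9 and 0 called differences. Both settings leave fewer peaks to test. With each list tested alone, 0 differences in tandem repeat share were called without replicate 1 and 5 without replicate 2, so the calls rested on replicate 1. Without replicate 1 or 2 in turn the tandem repeat share was 66.9% or 50.3%, the median 8 or 9 tags and the fold 52.9 or 53.9. Without CAMTA1 and NTM, a setting added after seeing the data, the median fold was 61.2. Of the 41 recomputed values for the 5 genes together, 29 stayed within the spread of the lists or 1.5 times the count, and 12 moved. Of those for single genes, 95 stayed and 35 moved. Shares and medians with a replicate left out always lie within the spread of the 2 lists. They count as stayed whatever the data, so these totals say nothing about them. Shared regions, shared shares and differences in the shared share need both lists, so leaving out a replicate gives no value for them. No paired analysis was possible because 1 input served both replicates and the 2 immunoprecipitations form 1 group. Peaks of 5 to 9 tags are too shallow to show that a site is absent from the other list.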
